A study of Homo sapiens with 3 samples.

Results

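Genes whose products carry or restrain the growth signals of colorectal tumours were followed through the peak lists of a GoldCLIP experiment: CTNNB1, APC, AXIN1, AXIN2, TCF7L2, PIK3CA, MYC, LGR5 and RNF43. They were chosen by name, and they are 9 of the 58994 genes that the RefSeq table of GRCh38 places on chromosomes. GoldCLIP crosslinks a HaloTag fusion protein to the RNA it touches, ties the HaloTag covalently to beads and sequences the RNA that stays bound. The series held 3 libraries from HCT116, an established human colorectal carcinoma line grown in McCoy's 5A medium with fetal bovine serum. The cells carried HaloTag alone, RPL22-HaloTag or RPL22L1-HaloTag, and each of these groups gave 1 library. RPL22 belongs to the ribosome's large subunit and has RPL22L1 as a paralog. The library with HaloTag alone was not analysed here, and no background was measured in it. Whether it was the control in the authors' peak calling is not stated. The labels give neither the promoter of the fusions nor whether a line is a clone. Single libraries allow no test between the groups, and 95% intervals are exact (Clopper-Pearson) and cover counting error only.

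In the intestine, WNT signalling keeps crypt stem cells dividing. Without a WNT signal, APC and AXIN proteins hold β-catenin in a complex that marks it for destruction, and with a signal β-catenin gathers in the nucleus and switches on genes together with TCF factors. LGR5 and RNF43 act at the cell surface on the amount of WNT receptor, MYC is a target of the pathway, and PIK3CA belongs to a separate growth pathway that is often mutated in the same tumours. HCT116 is known to carry altered CTNNB1, PIK3CA and RNF43 alleles, about which a peak list says nothing.

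A peak was given to a gene when its summit, the position of highest signal, lay within the gene's bounds. Peaks of exactly 30 bases with the summit offset at 15 are called flat, and all others shaped. Of the 154000 RPL22-HaloTag peaks, 64.9% were flat, as were 77.9% of the 254413 RPL22L1-HaloTag peaks. Scores are the authors' own values per peak and were ranked within a list, never between lists. The peaks carry no strand, so RNA from the opposite strand of a gene could not be told from its own, and the gene table gives no exons. More RNA of a gene and more contact per RNA cannot be told apart in these lists. Markers of the labelled cell type were present in the lists: 10 of 10 epithelial genes held an RPL22 summit and 9 of 10 an RPL22L1 summit, among them EPCAM with 4 and 20. Of 8 leukocyte genes 3 and 2 held a summit, of 7 fibroblast genes 1 and 2, and of 6 endothelial genes 4 and 4. Over all 19875 protein-coding genes the shares with a summit were 68.8% and 70.3%.

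Of the 9 driver genes, 8 held a summit in each list and the same gene, LGR5, held none in both. In the RPL22 list the 9 genes held 179 summits over 807 kb of sequence, or 0.222 per kb. In the RPL22L1 list they held 441, or 0.546 per kb. The median over the 9 genes was 0.220 per kb in the RPL22 list and 0.359 per kb in the RPL22L1 list, beside medians of 0.102 and 0.132 over all protein-coding genes. Over the protein-coding genes that held a summit in the list in question, the medians were 0.205 and 0.298 per kb, closer to those of the 9 genes. TCF7L2 alone supplied 50.3% of the RPL22 summits and 53.5% of the RPL22L1 summits. Without it the densities were 0.151 and 0.348 per kb.

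**Figure D1:**
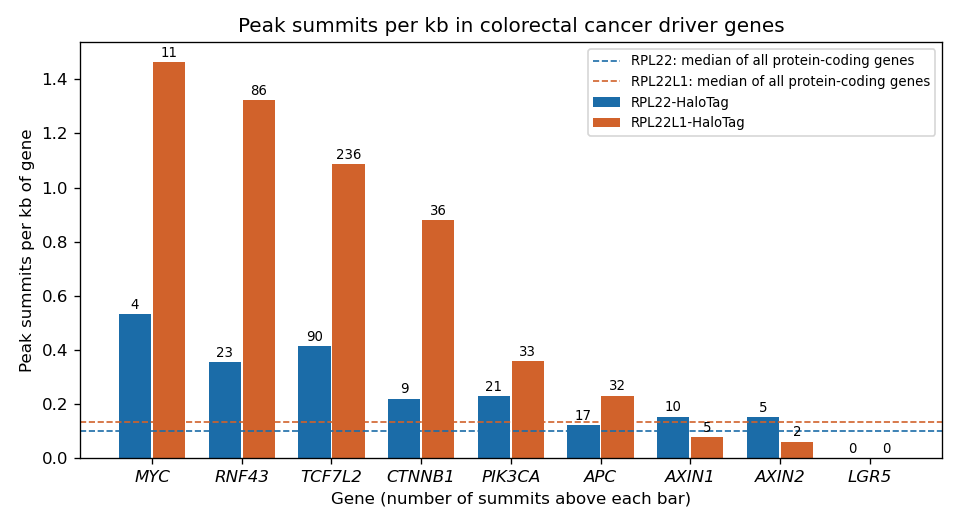
Peak summits per kb of gene (vertical axis) for the 9 genes, with the number of summits above each bar; blue bars are the RPL22-HaloTag library and orange bars the RPL22L1-HaloTag library, 1 library each, and the dashed lines are the medians over all protein-coding genes, 0.102 and 0.132 per kb. MYC stands highest in both lists with 0.532 and 1.46 per kb, AXIN1 and AXIN2 are the genes with more RPL22 than RPL22L1 summits, and LGR5 has none.

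By density, MYC was first in both lists, followed by TCF7L2 and RNF43 in the RPL22 list and by RNF43 and TCF7L2 in the RPL22L1 list. Among 19875 protein-coding genes ranked by summits per kb, MYC was number 1566 by RPL22 and number 496 by RPL22L1 summits. In the same order RNF43 had ranks 3358 and 678, TCF7L2 2573 and 1131, and CTNNB1 6377 and 1797. PIK3CA had ranks 6132 and 6107, and APC 9344 and 8089. AXIN1 had ranks 8368 and 11206, and AXIN2 8423 and 11652. CTNNB1 thus stood in the top 32.1% of genes by RPL22 summits and in the top 9.04% by RPL22L1 summits, while both AXIN genes stood higher by RPL22 summits. With single libraries, neighbours in this order that differ by a few summits cannot be separated.

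Of the surface proteins, LGR5 held no peak and RNF43 held peaks in both lists. LGR5, the receptor for R-spondins and a marker of intestinal stem cells, spans 147182 bases of chromosome 12 (71439129 to 71586310). No summit of either list lay in it, nor in the 3 long non-coding RNA genes that overlap it. The nearest RPL22 summits were 35931 bases below and 24398 bases above the gene, and the nearest RPL22L1 summits 45714 and 19992 bases. Of the 3355 protein-coding genes of at least 100000 bases, 4.14% were without a summit in both lists, against 24.5% of protein-coding genes of any length. LGR5 RNA in the cells was not measured here.

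RNF43, a ubiquitin ligase that removes WNT receptors from the surface and is itself switched on by the pathway, lies on the minus strand of chromosome 17 (58352500 to 58417534). It held 23 RPL22 summits and 86 RPL22L1 summits, or 0.354 and 1.32 per kb. Of these, 8 and 22 were shaped. Scores in the RPL22 list ran from 17 over a median of 34 to 118, and the highest peak had rank 15998, the top 10.4% of the list. In the RPL22L1 list they ran from 13 over a median of 115 to 764, and the highest peak, at 58389942 to 58389982, had rank 3803, the top 1.49%. At or above the median score of the list in question were 15 of the 23 RPL22 peaks and 41 of the 86 RPL22L1 peaks. The top 10% of the lists held 0 of the 23 and 5 of the 86, beside 10.0% of the peaks of each whole list. Overlap, meaning at least 1 shared base, was found for 7 RPL22 peaks and 7 RPL22L1 peaks. All 7 of these RPL22L1 peaks were flat, and none of the 22 shaped ones overlapped an RPL22 peak.

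RNF43 was the single member with a peak in an annotated start window. RefSeq windows of 250 bases before to 50 bases after a transcript start were given for 6 of the 9 genes, 10 windows in all, and 9 of them held no peak. Of all 35116 windows, 6.89% held an RPL22 peak and 5.68% an RPL22L1 peak. The remaining window, at chr17:58402672-58402971 (GRCh38.p14, minus strand), belongs to an internal start of RNF43 and is shown because peaks of both lists meet there. It reads, 5′ to 3′, with the bases under any peak in capitals:
RNF43 internal start window: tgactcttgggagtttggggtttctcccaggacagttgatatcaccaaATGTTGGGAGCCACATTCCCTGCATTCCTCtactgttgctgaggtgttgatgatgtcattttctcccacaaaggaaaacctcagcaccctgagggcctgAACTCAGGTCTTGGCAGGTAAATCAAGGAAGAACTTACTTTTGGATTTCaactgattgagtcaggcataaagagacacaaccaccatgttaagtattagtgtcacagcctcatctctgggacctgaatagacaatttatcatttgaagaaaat
The peaks cover 79 of its 300 bases. The overlapping pair of peaks is shown on its own, with the 11 shared bases in capitals:
RPL22L1 peak, score 187: aactcaggtcttggcaggtAAATCAAGGAA
RPL22 peak, score 33: AAATCAAGGAAgaacttacttttggatttc
On the minus strand the RPL22L1 peak lay 74 to 103 bases before the start and the RPL22 peak 55 to 84 bases before it. A second RPL22 peak, with a score of 58, lay 173 to 202 bases before the start and had no partner. All 3 were flat, and they ranked 70507 in the RPL22L1 list and 68706 and 38152 in the RPL22 list.

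APC, AXIN1 and AXIN2 are the scaffold proteins of the destruction complex. APC, the large scaffold whose loss starts most colorectal tumours, lies on the plus strand of chromosome 5 (112707498 to 112846239). It held 17 RPL22 summits, of which 4 were shaped, and 32 RPL22L1 summits, of which 8 were shaped. Its highest peak in both lists was the same place, with summits 1 base apart. The RPL22 peak covered 112778185 to 112778214 (score 351, rank 2740) and the RPL22L1 peak 112778183 to 112778212 (score 303, rank 25796). That place lies inside CBX3P3, an annotated pseudogene of the chromatin protein gene CBX3 within APC. CBX3 itself held 2 RPL22 and 17 RPL22L1 summits, and the part played by reads shared between such copies was not tested. With summits in shorter genes left out, the best APC peaks ranked 12683 (RPL22) and 35479 (RPL22L1). A second shared APC peak, flat in both lists, covered the same 30 bases (112770461 to 112770490).

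Over all APC peaks, the shared ones included, the lists differed in where summits lay along the gene. In the RPL22L1 list 18 of 32 summits, and 7 of the 8 shaped ones, lay in the last 10% of the length of APC. In the RPL22 list 3 of 17 lay there, and none of the 4 shaped ones. Over 15842 protein-coding genes with a strand, the last 10% of the length held 15.8% of RPL22 summits and 17.6% of RPL22L1 summits. For shaped summits these shares were 19.0% and 21.7%.

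AXIN1 and AXIN2, the scaffolds on which the complex assembles, held flat peaks and no others. AXIN1 (chromosome 16, 287440 to 352723, minus strand) held 10 RPL22 peaks, with scores of 21 in 5 peaks, 33 in 3 and 45 in 2. Its 5 RPL22L1 peaks had scores of 49, 115, 115, 132 and 150. AXIN2, which is also a WNT target gene (chromosome 17, 65528563 to 65561648), held 5 RPL22 peaks with scores of 21, 21, 32, 45 and 45. Its RPL22L1 peaks numbered 2, with scores of 65 and 150. With so few peaks the intervals of the flat shares were wide. They were 69.2 to 100% (RPL22) and 47.8 to 100% (RPL22L1) for AXIN1, and 47.8 to 100% and 15.8 to 100% for AXIN2. The whole lists had 64.9% and 77.9%. The highest peaks of both genes tied at rank 50483 of the RPL22 peaks (top 32.8%) and at rank 97918 of the RPL22L1 peaks (top 38.5%). A shaped peak was found in 6 of the 9 driver genes in each list. Of protein-coding genes of any length, 52.1% held a shaped RPL22 summit and 45.8% a shaped RPL22L1 summit. Gene length was not matched in this comparison. One pair of AXIN1 peaks overlapped, by 21 bases, with summits 41 and 32 bases from the 3′ boundary of the gene. No AXIN2 peaks overlapped, and the closest summits of the 2 lists there were 576 bases apart.

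CTNNB1 encodes β-catenin, which the complex destroys, and lies on the plus strand of chromosome 3 (41199505 to 41240443). It held 9 RPL22 peaks with scores of 21, 33, 43, 67, 72, 100, 128, 361 and 449. In the RPL22L1 list it held 36, with scores from 14 over a median of 92.5 to 986. Of these, 7 and 15 were shaped, so that 22.2% (2.81 to 60.01%) of the RPL22 peaks of CTNNB1 were flat, and 58.3% (40.8 to 74.5%) of its RPL22L1 peaks.

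The 3 highest RPL22 peaks of CTNNB1 were the 3 that overlapped RPL22L1 peaks, and all lay within the last 4 kb of the gene. The highest, at 41238039 to 41238103 (rank 1876, the top 1.22%), shared 54 bases with an RPL22L1 peak of score 344 at 41237957 to 41238092. The next, at 41236603 to 41236677 (rank 2644), shared 21 bases with an RPL22L1 peak of score 77, and the summits were 2 bases apart. The third, at 41236485 to 41236515 (rank 14895), shared 20 bases with a peak of score 138. Both peaks of each pair were shaped. The highest RPL22L1 peak of CTNNB1 was elsewhere, at 41201149 to 41201183, 1.66 kb from the 5′ end, with a score of 986 and rank 2195, the top 0.863% of that list. The nearest RPL22 summit was 991 bases away. The last 10% of CTNNB1 held 3 of 9 RPL22 and 12 of 36 RPL22L1 summits.

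**Figure D2:**
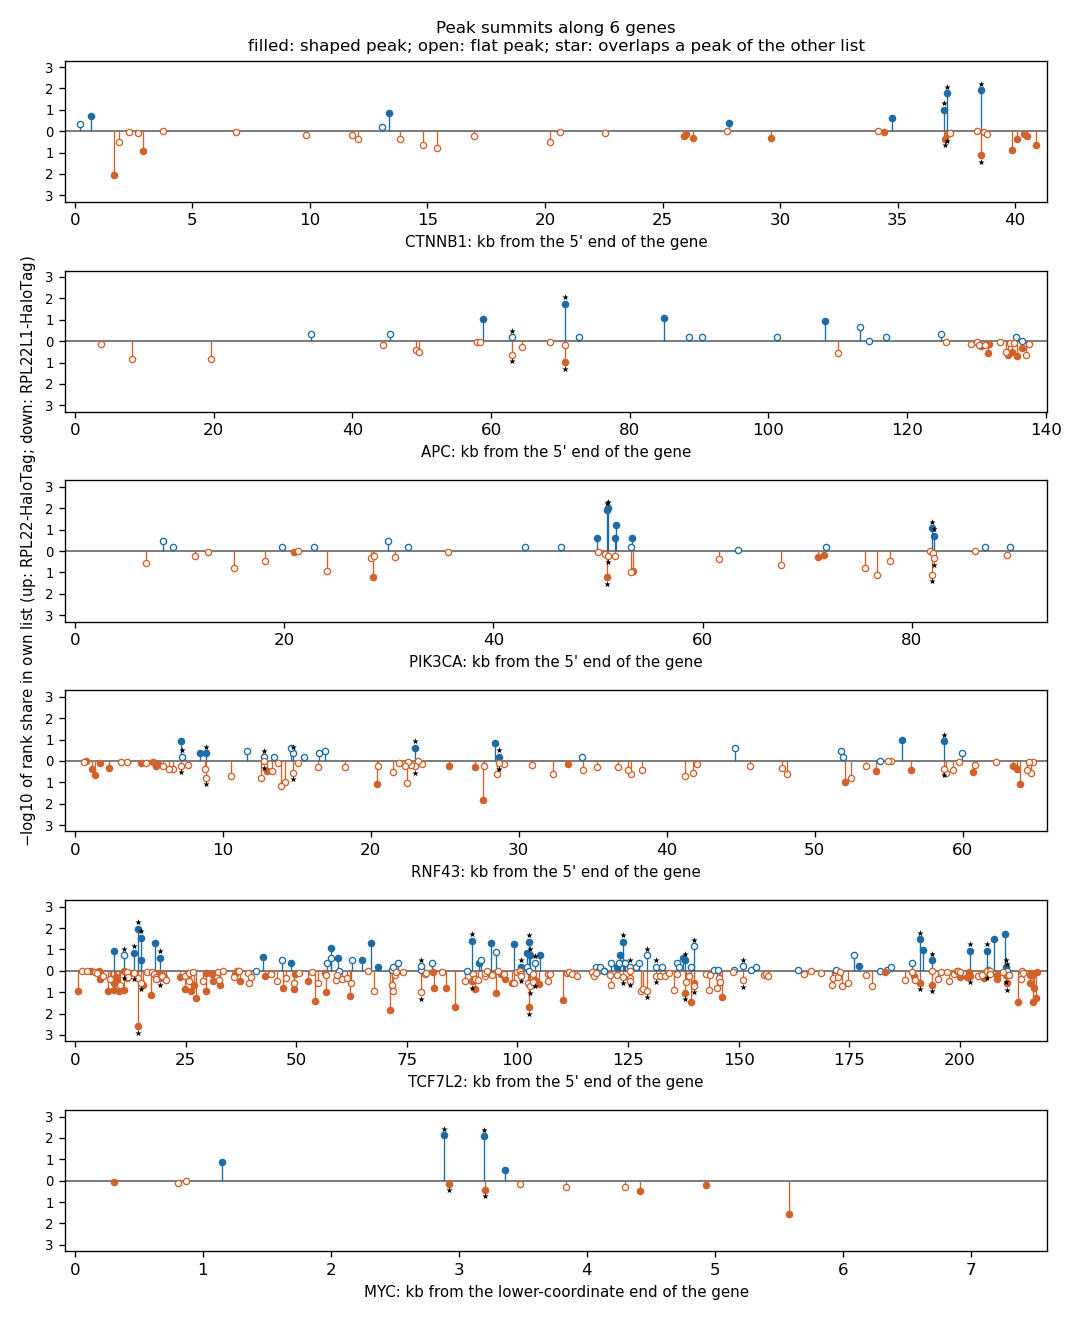
Summits along 6 of the genes; the horizontal axis is the distance in kb from the 5′ end (for MYC, from the end with the lower coordinate), and the height is the −log10 of a peak's rank divided by the length of its own list, drawn upwards for RPL22-HaloTag and downwards for RPL22L1-HaloTag. Filled points are shaped peaks, open points flat peaks, and stars mark peaks that overlap one of the other list, such as the 3 near the right end of CTNNB1 and the pair near 51 kb of PIK3CA.

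TCF7L2 encodes a TCF factor that carries β-catenin to its target genes. It spans 217432 bases of chromosome 10 (112950247 to 113167678, plus strand), the longest of the 9 genes. It held 90 RPL22 summits with scores from 13 over a median of 34 to 484, and 236 RPL22L1 summits with scores from 15 over a median of 120 to 2196. Of these, 38 and 83 were shaped. Its highest peak was the same in both lists. It lay 14.4 kb from the 5′ end, with the summit on the same base. The RPL22 peak covered 112964549 to 112964651 (rank 1648, the top 1.07%) and the RPL22L1 peak 112964545 to 112964634 (rank 659, the top 0.259%). No other peak of the 9 genes in the RPL22L1 list ranked higher.

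Peaks of TCF7L2 overlapped in 24 pairs, 26.7% (17.9 to 37.0%) of its RPL22 peaks and 10.2% (6.63 to 14.8%) of its RPL22L1 peaks. A further strong pair lay near 102.6 kb, with scores of 209 and 660 and summits 1 base apart. In 4 equal parts of the gene from the 5′ end, TCF7L2 held 12, 30, 30 and 18 RPL22 summits, and 79, 59, 42 and 56 RPL22L1 summits. The shaped RPL22L1 peaks were fewest in the third of these parts, with 38, 18, 5 and 22. SNORA87, a small nucleolar RNA gene inside TCF7L2, held 1 flat RPL22 peak (score 100) and 1 shaped RPL22L1 peak (score 322), which did not overlap.

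MYC, the transcription factor that the pathway raises, is the shortest of the 9 genes with 7518 bases (chromosome 8, 127735434 to 127742951). All 4 of its RPL22 peaks were shaped, with scores of 101, 635, 591 and 51 in the order of position. The peaks at 127738263 to 127738359 and 127738615 to 127738672 had ranks 1138 and 1256, the top 0.739% and 0.816%, and MYC was the member with the highest RPL22 peak. Both overlapped RPL22L1 peaks, of scores 75 and 162, by 27 and 39 bases.

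MYC held 11 RPL22L1 peaks, of which 6 were shaped, with scores of 34, 54, 25, 75, 162, 78, 127, 128, 176, 84 and 555 in the order of position. The highest, at 127740946 to 127741081, had rank 7195 and no RPL22 summit within 2216 bases. The strongest MYC peaks of the lists therefore lay at different places. Among 1605 protein-coding genes of similar length, the genes closest to MYC in both densities were NABP1 with 5 and 13 summits, ISG20L2 with 4 and 10, and BCDIN3D with 4 and 11. Closeness was the distance in log2 of summits per kb plus 0.1 over the 2 libraries, which is a coarse measure.

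PIK3CA, the catalytic subunit of a PI3 kinase, lies on the plus strand of chromosome 3 (179148126 to 179240093). It held 21 RPL22 summits, 8 of them shaped, with scores from 19 over a median of 26 to 513, and 33 RPL22L1 summits, 6 of them shaped, with scores from 16 over a median of 120 to 385. Its shaped RPL22 peaks lay in 2 places, 6 of them between 49.9 and 53.3 kb from the 5′ end and 2 near 82 kb. The highest, at 179199078 to 179199173 (rank 1491, the top 0.968%) and 179198990 to 179199037 (rank 1821), lay at 51.0 and 50.9 kb. The peak with rank 1821 overlapped an RPL22L1 peak of score 385, tied for the highest of PIK3CA in that list (rank 14936), with summits 1 base apart. The other overlapped a flat RPL22L1 peak of score 98. Of the 8 shaped RPL22 summits, 7 had an RPL22L1 summit within 100 bases. The median distance was 29 bases, while for the 13 flat ones it was 1269 bases. Every other member with both kinds of RPL22 peak also had the smaller median for shaped ones, such as RNF43 with 29 and 147 bases. RPL22L1 peaks did not share this order. Their shaped median was the larger in RNF43 (2045.5 and 717.5 bases for shaped and flat), CTNNB1 (1542 and 1439) and MYC (949 and 342). It was the smaller in APC (900 and 1689), PIK3CA (487.5 and 1294) and TCF7L2 (848 and 882). In the whole RPL22 list 39.2% of shaped peaks overlapped an RPL22L1 peak, against 5.59% of flat ones.

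**Figure D3:**
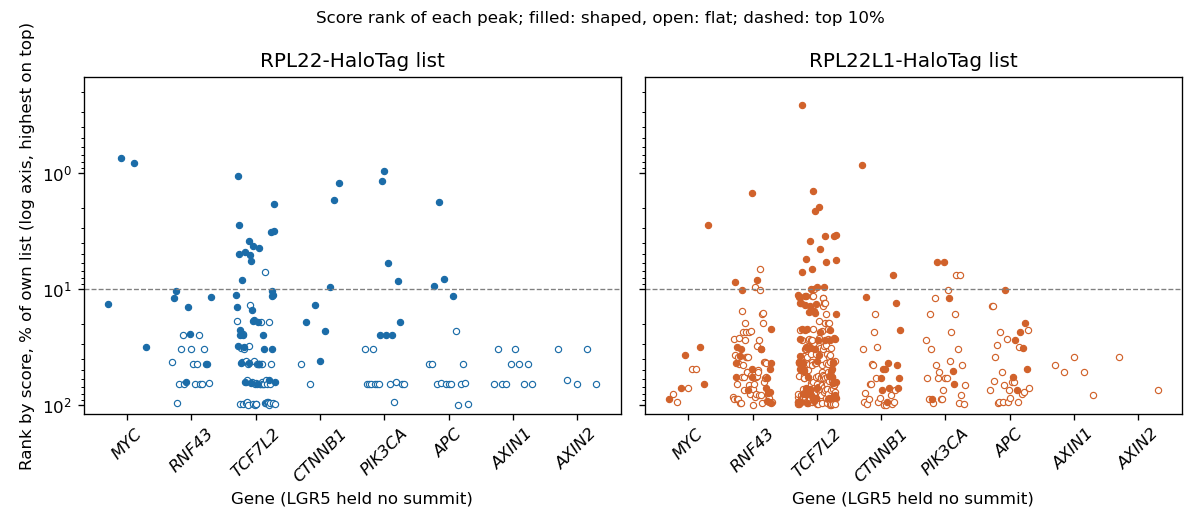
Rank of each peak by score as a percentage of its own list (vertical log axis, highest on top), by gene, with points ordered by position within a gene; the left panel is the RPL22-HaloTag list, the right panel the RPL22L1-HaloTag list, filled points are shaped, open points flat, and the dashed line is the top 10%. MYC and PIK3CA reach the top 1% in the RPL22 panel, TCF7L2 and CTNNB1 in the RPL22L1 panel, and all AXIN1 and AXIN2 points are open and below the line.

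Over all 9 genes, 26 of the 179 RPL22 peaks, or 14.5%, were in the top 10% of that list, which holds 10.0% of peaks with ties. Of the RPL22L1 peaks 29 of 441 were, or 6.58%, beside 10.0%. Flat peaks made up 61.5% (53.9 to 68.6%) of the RPL22 peaks in these genes and 68.3% (63.7 to 72.6%) of the RPL22L1 peaks. The whole lists had 64.9% and 77.9%. Over peaks in protein-coding genes the flat shares were 61.5% and 76.4%.

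The lists met at 43 pairs of peaks in these genes. That was 24.0% (18.0 to 31.0%) of the RPL22 peaks, beside 17.4% of the whole RPL22 list, and 9.75% (7.15 to 12.9%) of the RPL22L1 peaks, beside 10.6% of the whole RPL22L1 list. Over peaks in protein-coding genes the overlapping shares were 19.1% and 11.4%, both within the intervals of the 9 genes. Of the shaped RPL22 peaks in the 9 genes 29 of 69 overlapped, or 42.0% (30.2 to 54.5%), beside 39.2% of shaped RPL22 peaks everywhere. Of the shaped RPL22L1 peaks 19 of 140 did, or 13.6% (8.37 to 20.4%), beside 26.0%. In RNF43 0 of 22 shaped RPL22L1 peaks overlapped, and without RNF43 the share was 16.1% (9.98 to 24.0%). Of the flat RPL22 peaks in the 9 genes 14 of 110 overlapped, or 12.7% (7.14 to 20.4%), beside 5.59% of flat RPL22 peaks everywhere. Without TCF7L2 this share was 8.62% (2.86 to 19.0%). Of the flat RPL22L1 peaks 24 of 301 overlapped, or 7.97% (5.18 to 11.6%), beside 6.23%. Both peaks were shaped in 16 of the 43 pairs and both flat in 11. An overlapping peak was found in 7 of the 9 genes, while 40.2% of protein-coding genes held one, without matching for gene length.

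Since the RPL22L1 list was 1.65 times as long, summit numbers were also compared in lists of 154000 peaks each, with the RPL22L1 list reduced to its highest scores. RNF43 then held 23 and 56 summits, a log2 ratio of RPL22L1 over RPL22 summit number plus 1 of 1.248. CTNNB1 held 9 and 17 (0.85), TCF7L2 90 and 138 (0.61), MYC 4 and 5 (0.26), APC 17 and 16 (-0.08) and PIK3CA 21 and 18 (-0.21). AXIN1 held 10 and 4 (-1.14), and AXIN2 5 and 1 (-1.58). Of the 6 members holding 10 or more summits over both lists, 1 had a ratio above 1 and 1 below -1, beside 6.37% and 8.75% of the 8620 genes of that kind. These values moved with the peaks that entered. When peaks scoring below their list's median were dropped, the ratio was 0.75 for RNF43, -2.58 for AXIN1, 0.15 for CTNNB1, -0.74 for MYC, 0.53 for APC and 0.35 for PIK3CA. With the lists as deposited it was -0.87 for AXIN1, 1.89 for CTNNB1, 1.38 for TCF7L2, 1.26 for MYC and 0.87 for APC. Without flat peaks it was 0.85 for APC, and 0 for AXIN1 and AXIN2, which had no peak left. The direction for MYC, APC and PIK3CA therefore differed between settings, while RNF43, TCF7L2 and CTNNB1 stayed above 0 in each of them.

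**Figure D4:**
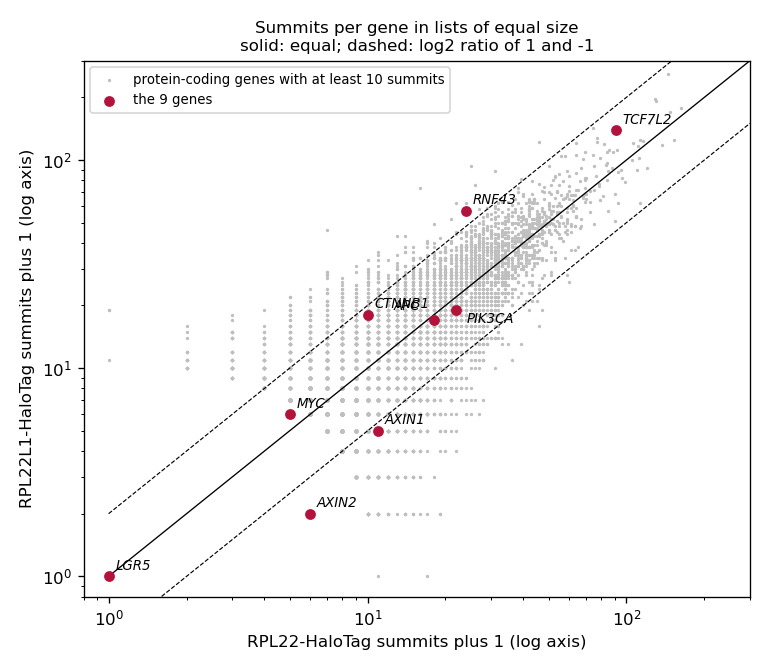
RPL22-HaloTag summits plus 1 (horizontal, log axis) and RPL22L1-HaloTag summits plus 1 (vertical, log axis) per gene in lists of 154000 peaks each; grey points are protein-coding genes holding 10 or more summits over both lists, red points the 9 genes, the solid line equal numbers and the dashed lines log2 ratios of 1 and -1. RNF43 lies above the upper dashed line, AXIN1 and AXIN2 below the lower one, and LGR5 at the origin.

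Further genes of these pathways were counted from lists of 121 genes in all. Of 16 genes for the destruction and degradation of β-catenin, all held a summit in both lists, 12 had overlapping peaks and the median density was 0.212 and 0.548 per kb. Of 24 genes for WNT receptors and their regulators 18 held a summit in each list, and 11 had overlapping peaks. Of 18 nuclear partners of β-catenin 17 held an RPL22 and 14 an RPL22L1 summit. Of 13 intestinal WNT target genes it was 9 and 10, of 20 PI3K pathway genes 18 and 18, of 14 genes of the MYC network 12 and 13, and of 18 other colorectal cancer genes 18 and 17. In lists of equal size 80 of the 121 genes had at least 10 summits, and 5 had a log2 ratio above 1 and 7 below -1, beside 6.37% and 8.75% of all genes of that kind, so these counts were near the background. Over all 121 genes 106 held an RPL22 summit, 104 an RPL22L1 summit and 71 an overlapping peak. The shares over protein-coding genes, not matched for length, were 68.8%, 70.3% and 40.2%.

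The densest of these genes in the RPL22 list were DVL1 and DVL3, which relay the WNT signal from the receptor, and MLX, a partner in the MYC network. DVL1 held 16 RPL22 and 7 RPL22L1 summits, DVL3 20 and 11, and MLX 6 and 9. In lists of equal size the log2 ratios were -1.28 for DVL1 and -1.22 for DVL3. The densest in the RPL22L1 list were SOX9, a crypt transcription factor, with 5 and 10 summits, the mismatch repair gene MSH6 with 12 and 40, and the secreted WNT inhibitor DKK1 with 0 and 5. At equal list size the log2 ratios were 0.22 for SOX9, 1 for MSH6 and 2.58 for DKK1, the last from 0 and 5 summits. The highest RPL22 peaks lay in the adhesion receptor gene CD44 (rank 636), the corepressor gene TLE5 (rank 801) and the kinase gene MTOR (rank 887). In the RPL22L1 list, DKK1 (rank 316) and CD44 (rank 471) held the highest peaks. No summit of either list lay in ASCL2, FZD8, FZD10, MYCN, PIK3CG, PYGO1, RSPO1 or SP5.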

How the data were processed

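The deposited files, a peak list for each fusion library, give a position, a whole-number score and a summit offset per peak, and the authors' score has no stated scale. Per the submitters' processing notes, cutadapt 4.8, STAR 2.7.10a, UMI-tools 1.1.5, MACS3 3.0.0a6 and the build hg38 were used; their roles and settings, the control and the treatment of reads with several matches are not given in the sources used here. Peaks were listed per library, and the read depth behind them is unknown. The other value columns held the same constant in every row of both lists and were not used.

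Gene bounds came from the RefSeq table of GRCh38.p14, which held no exons. Genes of scaffolds not placed along a chromosome were left out. All summits within a gene's bounds counted, those in shorter genes inside it included. Positions are counted from 1. Lists of equal size kept the highest scores, and ties at the lowest kept score of 98 were taken by sequence name and position. The genes named were the members, the 3 densest and the 3 with the highest peak of the pathway lists in each list, pathway genes without a summit, the 3 genes most like MYC and genes inside members. Members and lists were chosen with earlier results of these data known. MIZ1, an older name, was not matched. Some genes that this rule names are not reported here.

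Tools were Python 3.11.15 with scipy 1.17.1, pandas 2.3.3, numpy 2.4.6 and, for figures, matplotlib 3.10.9. The code was tested on simulated data before use.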

Additional observations from a re-analysis of the deposited data

How the results depend on the processing

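No paired analysis was possible because each group has 1 library and the labels give no replicate numbers. When peaks scoring below their list's median were dropped, the 9 genes held 104 and 209 summits (0.129 and 0.259 per kb), the flat shares were 39.4% and 56.5%, and, of members with at least 10 summits, 0 had a log2 ratio above 1 and 0 below -1; AXIN1 (-2.58) and AXIN2 (-1.58) were below -1 with fewer summits. Without flat peaks they held 69 and 140 summits (0.0855 and 0.173 per kb), and 0 such members had a ratio below -1. Cut to equal size, the RPL22L1 list gave 255 summits (0.316 per kb), a flat share of 59.6% and an overlapping share of 12.9%. With the lists as deposited 4 such members had a ratio above 1 (CTNNB1, TCF7L2, MYC and RNF43) and 0 below -1. Requiring 50% of each peak to be shared gave shares of 14.5% and 5.90%. Leaving out TCF7L2 gave an RPL22L1 density of 0.348 per kb. That setting and the handling of tied scores were chosen after the data were seen. What caused each shift was not tested. The other 36 of 58 values for the comparisons moved by less than their interval, or by less than 1.5-fold. They include every value with summits in shorter genes left out, and those with neighbouring peaks merged, which joined no peaks in these genes and says nothing about stability. The RPL22 count, density and flat share in lists of equal size could not move, because only the RPL22L1 list was cut. Densities over the same genes repeat the counts. For single genes 153 of 197 values stayed, which is no measure of stability. Some could not move: the LGR5 counts of 0, RPL22 counts in lists of equal size, and best ranks after lower-scoring peaks were dropped. A log2 ratio between -1 and 1 was also counted as staying when its sign changed, as for MYC, APC and PIK3CA. Unknown depth limits what the absence of a peak, as in LGR5, can show.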

Other observations

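The 3′ end of RNF43 overlaps TSPOAP1-AS1, a long non-coding RNA gene, and 5 of the 86 RPL22L1 summits of RNF43 lay in the shared part, while no RPL22 summit did. The strongest of them, at 58353603 to 58353651 of chromosome 17, had a score of 325. Within the 6 members that have an annotated strand, 22.4% of the 134 shaped RPL22L1 summits lay in the first 10% of the gene, beside 7.79% over protein-coding genes, and 27.6% in the last 10%, beside 21.7%. For the 65 shaped RPL22 summits the shares were 12.3% beside 10.8% and 13.8% beside 19.0%. TCF7L2 held 19 and RNF43 held 9 of the 30 shaped RPL22L1 summits in the first 10%.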
